A study of Mus musculus with 6 samples.

Results

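The collagen genes of the mouse hippocampus were compared between IκBα-deficient animals and littermate controls. Members were the genes whose single symbol in GEO's platform annotation has the form Col, a number, a and a number, each read from its brightest probe set by the mean of all 6 arrays. This gave 42 genes of the 18193 named on the array, with 82 probe sets among them. RefSeq lists 44 genes of that form, and the other two, Col28a1 and Col6a6, are not analysed here.

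Total RNA from hippocampi of mice aged 2 to 3 months was hybridised to 6 Affymetrix arrays, 1 per animal. The 3 IκBα-deficient animals had the genotype IκBαfl/-;Nestin-Cre, in which 1 copy of the IκBα gene is floxed and the other null, with a recombinase under the Nestin promoter. The 3 littermate controls were IκBαfl/- without the recombinase, so all 6 animals carried a null allele and the controls are not wild type. Nestin-Cre acts in neural progenitors, from which neurons, astrocytes, oligodendrocytes and choroid plexus epithelium descend, while most fibroblasts and vessel wall cells have other origins. Values are relative levels on the log2 scale made by RMA, and differences are IκBα-deficient minus control, so a difference of 1 is a doubling.

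Collagens are proteins of 3 chains wound into a triple helix, and the genes encode single chains. Fibrillar collagens form the rope-like fibrils of connective tissue, in the brain mostly in the meninges and around vessels. Type IV collagen makes the sheet of basement membranes, on which endothelium, pericytes and astrocyte endfeet rest, with the fibril-associated and transmembrane collagens on or between such structures. IκBα, the product of Nfkbia, holds NF-κB transcription factors in the cytoplasm, and the comparison asks which transcripts differ in the IκBα-deficient animals.

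Nfkbia was at 9.06, 9.13 and 8.66 on the IκBα-deficient arrays, against 10.39, 10.35 and 10.31 on the control arrays, a difference of -1.40 ± 0.12 (SE), and its limma p adjusted over all genes was 0.057. The 8 hippocampal neuron markers averaged 9.21 to 9.28 on deficient and 9.24 to 9.39 on control arrays. Their differences ran from -0.38 to 0.24, with 2 above 0 and 6 below. At an unadjusted p under 0.05 (limma), 1 was higher and 2 were lower, beside 3.33% and 1.39% of all genes. Markers of neighbouring tissue also differed between animals. The 13 measured choroid plexus markers of 14 averaged 8.54, 8.0 and 7.68 on the deficient arrays, against 7.81, 5.98 and 5.91 on the control arrays, so control array 1 lay within the deficient range. The 14 meninges markers averaged 7.60, 8.71 and 7.67 on deficient arrays, against 7.57, 7.81 and 7.19 on control arrays, and IκBα-deficient array 2 stood apart. On that array the 3′ control probe sets of actin and Gapdh exceeded the 5′ ones by 2.02 on the log2 scale, beside 0.56 to 0.73 on the other 5 arrays. The choroid plexus and meninges list means were used as covariates in alternative fits. Both list means differ between the groups, so such a fit cannot tell tissue content from genotype. The part of the RNA quality values in the results was not tested.

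None of the 42 collagen genes passed an adjusted p under 0.05 (limma), where the percentage of all genes called was 0, and the members' adjusted p lay between 0.963 and 0.999. At an unadjusted p under 0.05, 7 collagens were on the higher side in deficient animals, among 3.33% of all genes, and 0 on the lower side, among 1.39% of all genes. A linear model without moderation gave 2 and 0 at that level, and the share of all genes was not computed for that fit. The 7 were Col8a1, Col8a2, Col6a3, Col9a3, Col15a1, Col26a1 and Col1a2. All 3 deficient arrays lay above all 3 controls for 6 collagens, among 5.94% of genes, and below for 0, among 3.82% of genes. The median difference of the 42 genes was 0.07, beside 0.01 for all genes, with 28 above 0 and 14 below, where 52.6% of all genes were above 0. Without IκBα-deficient array 2 the collagen median was -0.0075, with 20 above 0 and 22 below. In that fit 5 collagens were on the higher side at an unadjusted p under 0.05, 7 were separated higher and 4 lower. With fewer arrays groups separate more readily, and the share of all genes was not computed there. Leaving out control array 3 gave 3 on the higher side at that p, and leaving out IκBα-deficient array 3 gave 11. For these fits too the share of all genes was not computed, so the counts have no baseline. Of the 42, 27 lay in the lowest 40% of genes by mean value, where RMA compresses differences.

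**Figure D1:**
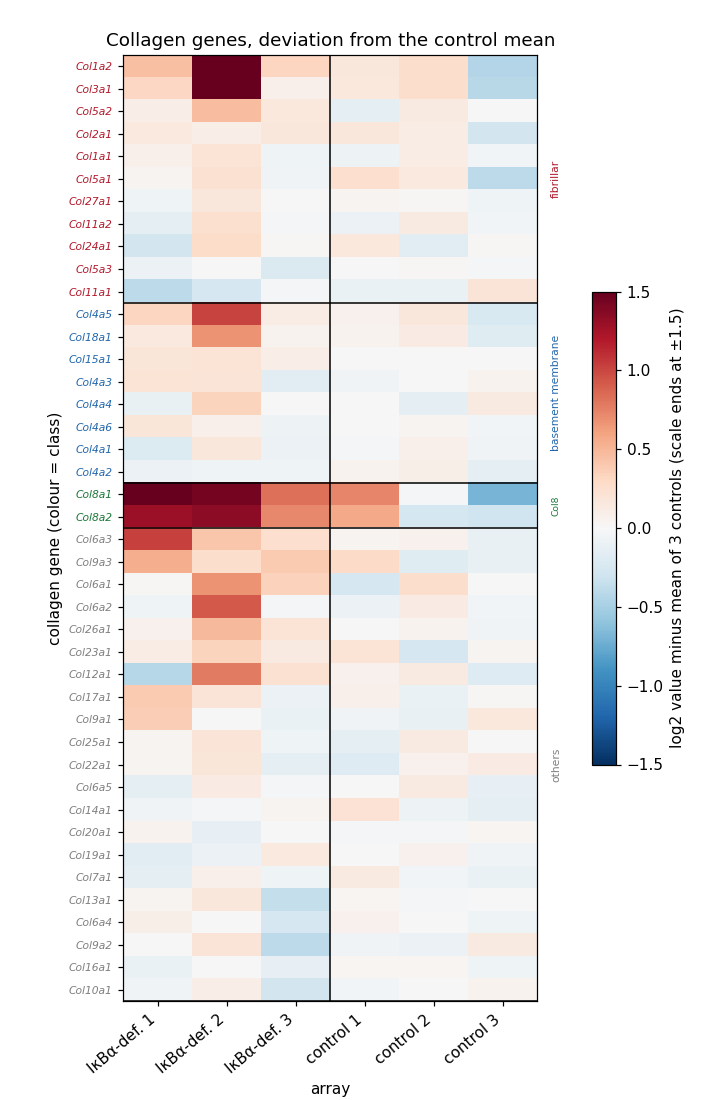
The 42 collagen genes (rows, coloured by class and ordered within it by their difference) on the 6 arrays (columns, IκBα-deficient left of control), each shown as the RMA log2 value minus the gene's mean over the 3 controls. Col8a1 and Col8a2 are high on all deficient arrays and on control array 1, and the fibrillar genes Col1a2 and Col3a1 are high mainly on IκBα-deficient array 2.

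Both chains of type VIII collagen had the widest differences among the collagens. This short-chain collagen forms networks and is best known from the membrane under the corneal endothelium and from vessel walls, and in the mouse brain Col8a1 transcript is known from choroid plexus epithelium. Col8a1 was at 7.73, 7.54 and 6.92 on deficient arrays, against 6.83, 6.07 and 5.39 on control arrays. Col8a2 was at 7.04, 7.10 and 6.48 on deficient arrays, against 6.33, 5.49 and 5.45 on control arrays. The groups did not overlap for either gene, and in both the lowest deficient array stood just above control array 1, the highest control.

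Col8a1 averaged 7.40 ± 0.43 in deficient animals and 6.10 ± 0.72 in controls (SD, n = 3 each), a difference of 1.30 ± 0.35 (SE) or 2.46-fold. Col8a2 averaged 6.87 ± 0.34 and 5.76 ± 0.50 (SD, n = 3 each), a difference of 1.12 ± 0.26 or 2.17-fold. Both had a limma adjusted p of 0.963, and without control array 1 the differences were 1.66 and 1.40. A second probe set of Col8a1 was at 6.78, 6.77 and 6.47 on deficient arrays, against 6.66, 5.90 and 5.88 on control arrays, so its groups overlapped. The third lay between 4.18 and 4.35 on all 6 arrays and differed by 0.05.

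All 13 choroid plexus markers had higher means in the same deficient animals, from 0.09 for Tmem72 to 3.01 for Clic6, with a median difference of 1.27. Ttr, the thyroid hormone carrier of that epithelium, was at 14.77, 14.69 and 14.51 on deficient arrays, against 14.49, 10.93 and 10.23 on control arrays. With the mean of this list as a covariate in the fit, the difference of Col8a1 was 0.34 and that of Col8a2 0.40, each with an adjusted p of 1 (limma). The list mean itself was 8.07 in deficient and 6.57 in control animals, so this fit cannot tell the covariate from genotype. In bulk tissue, more cells of a type and more RNA per cell cannot be told apart.

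The promoters of the pair are shown because both genes had the widest differences on separate chromosomes. They are RefSeq windows of GRCm38.p6, from 250 bases before to 50 after the annotated start, at chr16:57754688-57754987 on the minus strand for Col8a1 and chr4:126286544-126286843 on the plus strand for Col8a2. Capitals mark GGGCGG, the GC box bound by Sp1 family factors, on either strand.
Col8a1: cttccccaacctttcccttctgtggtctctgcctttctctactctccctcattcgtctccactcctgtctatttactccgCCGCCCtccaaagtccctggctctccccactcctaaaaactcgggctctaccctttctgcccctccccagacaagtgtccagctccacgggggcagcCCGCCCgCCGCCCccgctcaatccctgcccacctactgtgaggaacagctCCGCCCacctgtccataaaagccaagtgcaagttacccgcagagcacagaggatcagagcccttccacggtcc
Col8a2: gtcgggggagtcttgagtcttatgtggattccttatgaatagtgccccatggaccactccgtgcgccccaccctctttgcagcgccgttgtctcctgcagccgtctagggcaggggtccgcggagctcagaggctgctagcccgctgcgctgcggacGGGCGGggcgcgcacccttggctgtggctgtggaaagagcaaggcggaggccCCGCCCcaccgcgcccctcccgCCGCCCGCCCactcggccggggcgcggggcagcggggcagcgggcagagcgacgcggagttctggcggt
Each window held 4 GC boxes, and 2 of those in Col8a2 share bases, in windows of 60.3% G and C for Col8a1 and 71.7% for Col8a2. Of all 32851 windows in the table, with a median of 52.7% G and C, 35.7% held at least 1 GC box, as did 22 of the 36 windows of the 33 collagen genes found there. The letters of the NF-κB binding motif were in neither Col8 window on either strand. Across collagens 7 windows held it, of the genes Col27a1, Col4a2, Col6a2 (both windows), Col6a4, Col9a1 and Col9a2, or 19.4% beside 8.46% of all windows. Those 7 windows held 55% to 73.7% G and C, above the median of all windows. The shares were not adjusted for G and C content, and enrichment was not tested. The differences of these 6 genes ran from -0.07 to 0.28.

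The 11 fibrillar collagens had a median difference of 0.07, with 9 above 0 and 2 below, beside 52.6% of all genes above 0. Among them 1 was higher at an unadjusted p under 0.05, beside 3.33% of all genes, and 1 was separated higher, beside 5.94%. Without IκBα-deficient array 2 the fibrillar median was -0.0072, with 5 above 0 and 6 below. It was -0.03 with array weights and 0.0026 without control array 3. Col1a2, the second chain of type I collagen, was at 8.72, 9.98 and 8.60 on deficient arrays, against 8.45, 8.53 and 7.84 on control arrays. Col3a1, the single chain of type III collagen of soft tissue and vessel walls, was at 6.86, 8.64 and 6.63 on deficient arrays, against 6.71, 6.81 and 6.13 on control arrays. In both genes, on the probe set used, IκBα-deficient array 2 was far above the other 5 arrays, and control array 3 was the lowest. The difference was 0.83 ± 0.36 (SE) for Col1a2 and 0.82 ± 0.48 for Col3a1 (limma adjusted p of 0.963 each). It was 0.39 and 0.19 without IκBα-deficient array 2, and 0.26 and 0.07 with the meninges list as a covariate. A second probe set of Col1a2 was at 5.466, 6.856 and 5.434 on deficient arrays, against 5.141, 5.472 and 4.978 on control arrays. Its groups overlapped, as did those of the third, which differed by 0.03. The second probe set of Col3a1 was dim, at 3.72, 3.81 and 3.62 on deficient arrays, against 3.35, 3.60 and 3.57 on control arrays. Its groups did not overlap, with a difference of 0.21, and control array 1 was the lowest. All 14 meninges markers had higher means in deficient animals, from 0.09 for Foxc1 to 1.12 for Slc47a1, with a median of 0.35. Without IκBα-deficient array 2, 10 were above 0 and 4 below (Foxc1, Foxd1, Ogn and Slc22a6), with a median of 0.15 and 0.18 for Slc47a1. Fmod, fibromodulin, which binds collagen fibrils, was at 7.12, 9.77 and 7.37 on deficient arrays, against 7.07, 8.09 and 6.12 on control arrays.

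Col5a2, a chain of the type V collagen that sets fibril width, was at 6.73, 7.09 and 6.79 on deficient arrays, against 6.49, 6.77 and 6.63 on control arrays. Its difference was 0.24 ± 0.11 (SE), and 0.13 without IκBα-deficient array 2. Col11a1, a chain of the type XI collagen of cartilage fibrils, had the most negative difference of the 42 genes. It was at 5.47, 5.60 and 5.82 on deficient arrays, against 5.76, 5.75 and 6.05 on control arrays, -0.23 ± 0.12 (SE), with groups that overlapped. Leaving out control array 3 gave -0.13, and leaving out IκBα-deficient array 1 gave -0.14. Its second probe set was at 5.20, 5.20 and 5.36 on deficient arrays, against 5.42, 5.44 and 5.39 on control arrays, which did not overlap. The difference of Col11a1 was -0.04 with the choroid plexus list as a covariate. Both genes had limma adjusted p of 0.963.

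Col1a1 encodes the other chain of type I collagen and was singled out after its values were seen, as the partner of Col1a2. Its brighter probe set was at 5.82, 5.95 and 5.67 on deficient arrays, against 5.66, 5.86 and 5.70 on control arrays, a difference of 0.07 ± 0.09 (SE) with a 95% interval of -0.14 to 0.28. The second was at 5.58, 5.96 and 5.77 on deficient arrays, against 5.48, 5.43 and 5.52 on control arrays, a difference of 0.29. Only the second separated the groups, and both were below the array medians. The remaining fibrillar members, Col2a1, Col5a1, Col5a3, Col11a2, Col24a1 and Col27a1, differed by -0.10 to 0.14, and the groups of all 6 overlapped.

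**Figure D2:**
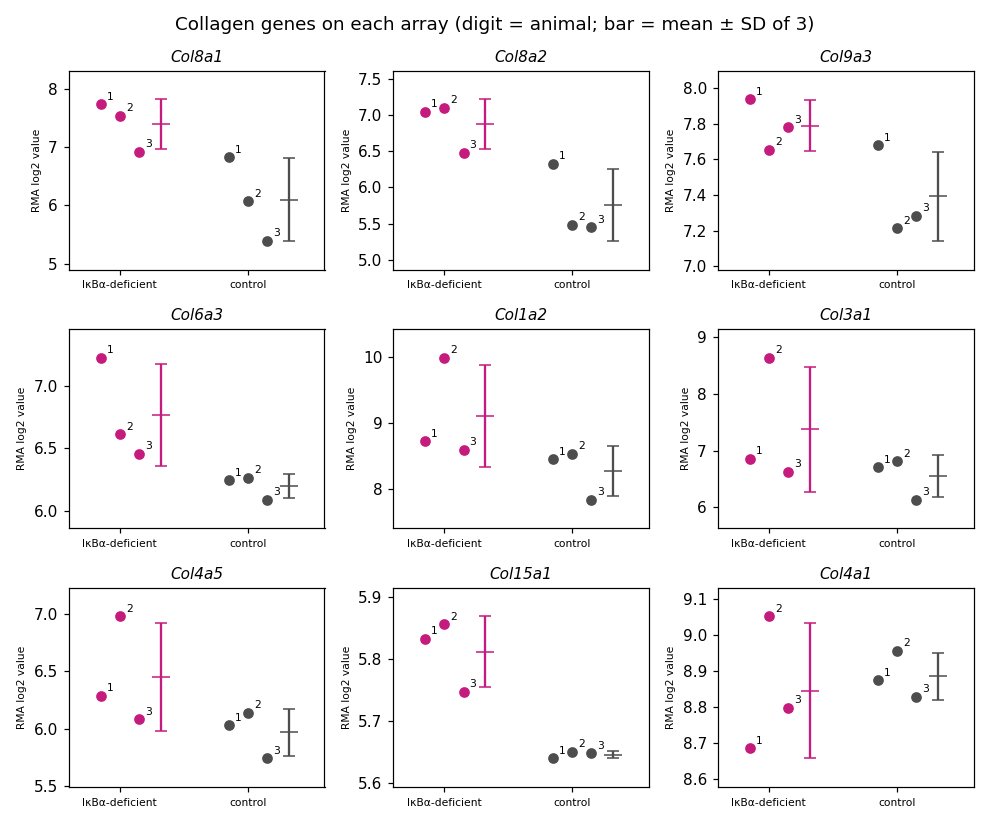
RMA log2 values of 9 collagen genes on each array, IκBα-deficient left of control, with the mean ± SD of 3 arrays beside the points and the animal's repeat number at each point. On the probe set used, Col8a1, Col8a2, Col6a3, Col15a1 and Col1a2 have separated groups, and Col9a3, Col3a1, Col4a5 and Col4a1 overlap. Animal 2 of the deficient group carries the high values of Col1a2, Col3a1 and Col4a5. The vertical axes differ in range and do not start at 0.

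The windows before Col1a2 and Col3a1 are shown as the pair with like profiles over the 6 arrays. They lie at chr6:4505368-4505667 and chr1:45311288-45311587, both on the plus strand (RefSeq, GRCm38.p6). Capitals mark the GC box GGGCGG, the box CCAAT bound by the factor NF-Y, and the TATA box TATAAA, each on either strand.
Col1a2: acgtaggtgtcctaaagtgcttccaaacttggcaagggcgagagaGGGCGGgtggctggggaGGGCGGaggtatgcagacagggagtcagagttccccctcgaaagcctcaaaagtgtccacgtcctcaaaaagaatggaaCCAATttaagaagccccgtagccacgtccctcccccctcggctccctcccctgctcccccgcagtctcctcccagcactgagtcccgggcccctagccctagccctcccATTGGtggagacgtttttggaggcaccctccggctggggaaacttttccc
Col3a1: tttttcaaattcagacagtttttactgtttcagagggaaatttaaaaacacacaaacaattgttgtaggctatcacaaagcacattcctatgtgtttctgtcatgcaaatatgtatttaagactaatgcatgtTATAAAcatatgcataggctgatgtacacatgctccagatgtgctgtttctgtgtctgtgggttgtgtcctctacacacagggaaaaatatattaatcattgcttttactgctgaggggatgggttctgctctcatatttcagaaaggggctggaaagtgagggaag
Col1a2 held 2 GC boxes and 2 CCAAT boxes, 1 on each strand, and Col3a1 held 1 TATAAA and none of the other two. CCAAT was in 37.4% and TATAAA in 13.6% of all windows. The pair shared no match in these windows, and neither held the NF-κB motif.

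The 8 collagens of basement membranes had a median difference of 0.08, with 6 above 0 and 2 below, beside 52.6% of all genes above 0. Among them 1 was higher at an unadjusted p under 0.05, beside 3.33% of all genes, and 1 was separated higher, beside 5.94%. Col15a1, whose product links basement membranes to the matrix beneath, was at 5.83, 5.86 and 5.75 on deficient arrays, against 5.64, 5.65 and 5.65 on control arrays. Its groups did not overlap, with a difference of 0.17 ± 0.06 (SE) or 1.12-fold, and a limma adjusted p of 0.963. The 3 control values lay within 0.01 of each other (SD of 0.006), while the SD of the deficient group was 0.06. The difference of Col15a1 lay between 0.14 and 0.20 under the 16 alternatives that kept the gene, and the filter on dim genes removed it.

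Col4a5, a chain of type IV collagen found in brain and kidney, was at 6.29, 6.98 and 6.08 on deficient arrays, against 6.03, 6.14 and 5.74 on control arrays, a difference of 0.48 ± 0.22 (SE). IκBα-deficient array 2 was the highest and the groups overlapped, and the difference was 0.22 without it. The second probe set of Col4a5 differed by 0.0035. Col18a1, whose C-terminal fragment is the angiogenesis inhibitor endostatin, was at 6.92, 7.44 and 6.82 on deficient arrays, against 6.82, 6.89 and 6.58 on control arrays. Its difference of 0.29 ± 0.16 (SE) was 0.10 without IκBα-deficient array 2. A second probe set of Col18a1 was at 6.75, 6.99 and 6.77 on deficient arrays, against 6.66, 6.66 and 6.39 on control arrays. Its groups did not overlap, with a difference of 0.26 and a limma adjusted p of 0.985 among all probe sets.

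The main type IV chains of vessel basement membranes, Col4a1 and Col4a2, showed no difference past their spread. Col4a1 was at 8.69, 9.05 and 8.80 on deficient arrays, against 8.87, 8.96 and 8.83 on control arrays, -0.04 with a 95% interval of -0.27 to 0.19, and 0.04 without IκBα-deficient array 1. Col4a2 was at 7.77, 7.79 and 7.79 on deficient arrays, against 7.91, 7.93 and 7.71 on control arrays, -0.07 with an interval of -0.24 to 0.11. The second probe set of Col4a1 differed by 0.12. Endothelial markers had 5 of 9 measured genes of 10 above 0, averaging 7.94 to 8.0 on deficient and 7.89 to 8.0 on control arrays. Pericyte and smooth muscle markers had 10 of 11 above 0, averaging 8.14 to 8.57 on deficient and 7.99 to 8.29 on control arrays. Without IκBα-deficient array 2, and likewise without control array 3, 6 of the 11 were above 0.

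Col4a1 and Col4a2 start head to head on chromosome 8, and their promoter windows share 78 bases at chr8:11312777-11312854 (RefSeq, GRCm38.p6). These bases are printed here on the strand of Col4a2 as the stretch common to both starts, without capitals. The stretch holds the GC box GGGCGG, 7 to 12 bases after the annotated start of Col4a2.
Col4a1 and Col4a2: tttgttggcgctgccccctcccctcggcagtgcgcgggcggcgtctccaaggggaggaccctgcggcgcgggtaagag
The remaining type IV chains, Col4a3, Col4a4 and Col4a6, lay in the lowest 40% of genes by mean, with differences of 0.08, 0.08 and 0.06. A second probe set of Col4a3 was at 4.49, 4.50 and 4.53 on deficient arrays, against 4.29, 4.14 and 4.18 on control arrays, without overlap. Its difference of 0.31 had a limma adjusted p of 0.985 among all probe sets.

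**Figure D3:**
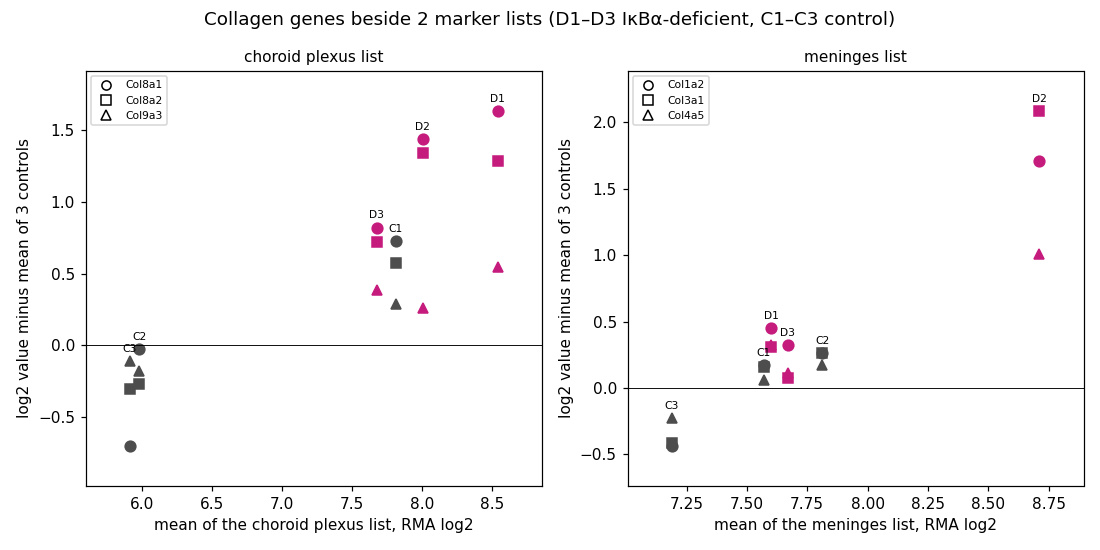
Collagen genes as RMA log2 values minus the mean of 3 controls (vertical axes) against the mean of the choroid plexus list (left) and the meninges list (right) on each array, with IκBα-deficient arrays D1 to D3 in pink and control arrays C1 to C3 in grey. Col8a1, Col8a2 and Col9a3 on control array 1 lie beside the deficient arrays, as its choroid plexus mean of 7.81 does, and Col1a2, Col3a1 and Col4a5 are highest on the array with the highest meninges mean, 8.71.

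The 21 other collagens were nearly even, with a median difference of 0.03, 11 above 0 and 10 below, beside 52.6% of all genes above 0. Among them 3 were higher at an unadjusted p under 0.05, beside 3.33% of all genes, and 2 were separated higher, beside 5.94%. Type VI chains form beaded filaments next to basement membranes, and Col6a3 had the widest difference of the 21. It was at 7.22, 6.61 and 6.46 on deficient arrays, against 6.25, 6.27 and 6.09 on control arrays. The groups did not overlap, with a difference of 0.56 ± 0.18 (SE) or 1.48-fold and a limma adjusted p of 0.963. IκBα-deficient array 1, not array 2, was the highest, and the difference was 0.33 without array 1 and 0.64 without array 2. With the choroid plexus covariate it was 0.32.

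Col6a1 was at 7.70, 8.37 and 8.03 on deficient arrays, against 7.43, 7.95 and 7.69 on control arrays, a difference of 0.35 ± 0.18 (SE) with overlapping groups. It was 0.18 without IκBα-deficient array 2 and 0.70 with the choroid plexus covariate. Col6a2 differed by 0.28, with 8.48 on IκBα-deficient array 2 and 7.47 to 7.68 on the other 5 arrays, and the difference was -0.04 without that array. Col6a4 and Col6a5 differed by -0.05 and -0.01.

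Among the fibril-associated collagens, which coat fibrils without forming them, Col9a3 stood out. It encodes a chain of type IX collagen, a component of cartilage whose transcript is also known from mouse choroid plexus. Col9a3 was at 7.94, 7.65 and 7.78 on deficient arrays, against 7.68, 7.21 and 7.28 on control arrays, 0.40 ± 0.13 (SE) or 1.32-fold, with a limma adjusted p of 0.963. The groups overlapped only because control array 1 was just above IκBα-deficient array 2. A second probe set of Col9a3 was at 7.30, 7.04 and 6.61 on deficient arrays, against 6.38, 6.08 and 6.19 on control arrays, and did not overlap. With the choroid plexus covariate the difference of Col9a3 was 0.05. Its partner chains Col9a1 and Col9a2 differed by 0.09 and -0.07.

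The remaining fibril-associated genes, Col12a1, Col14a1, Col16a1, Col19a1, Col20a1 and Col22a1, differed by -0.08 to 0.19 with overlapping groups. Probe sets of Col19a1 disagreed. The one used was at 8.05, 8.14 and 8.37 on deficient arrays, against 8.21, 8.29 and 8.16 on control arrays, -0.03, or 0.03 without IκBα-deficient array 1. The dimmest was at 4.48, 4.47 and 4.48 on deficient arrays, against 4.66, 4.55 and 4.74 on control arrays, a difference of -0.17 without overlap, while the third differed by 0.0072.

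Of the transmembrane collagens, Col25a1, a neuronal collagen whose shed part binds amyloid, was at 9.83, 9.98 and 9.72 on deficient arrays, against 9.64, 9.93 and 9.80 on control arrays. Its difference of 0.05 had a 95% interval of -0.17 to 0.28, and was -0.02 without IκBα-deficient array 2. Col23a1, Col17a1 and Col13a1 differed by 0.20, 0.16 and -0.05, all with overlapping groups. Of the rest, Col26a1 was at 4.92, 5.34 and 5.07 on deficient arrays, against 4.85, 4.91 and 4.81 on control arrays, without overlap. Its difference was 0.25 ± 0.11 (SE), with a limma adjusted p of 0.963, 0.13 without IκBα-deficient array 2, and 0.05 on its other probe set. Col7a1, of the anchoring fibrils of skin, and Col10a1, of growth plate cartilage, differed by -0.04 and -0.08.

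**Figure D4:**
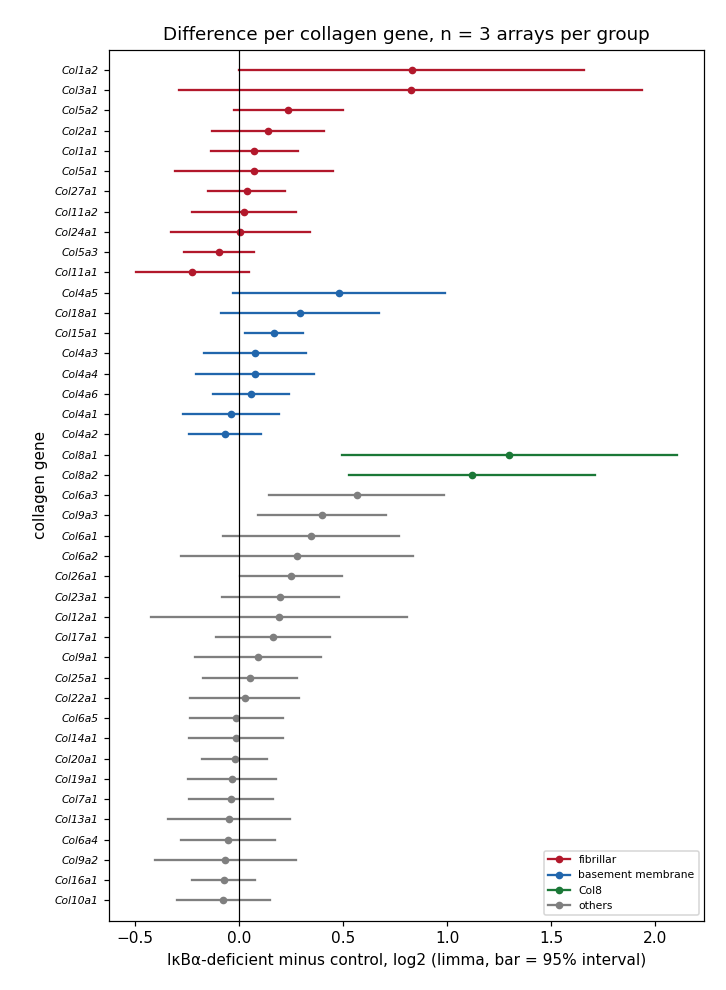
IκBα-deficient minus control difference of each collagen gene on the log2 scale (points) with the 95% interval of the limma fit (bars), 3 arrays per group, coloured by class. The intervals of Col8a1 (0.49 to 2.10) and Col8a2 (0.53 to 1.71) lie farthest from 0, and those of most other members include 0.

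Genes that make and shape collagen had differences of both signs. Of 26 measured genes among 29 for chain modification, folding, processing and cross-linking, 1 was on the higher side at an unadjusted p under 0.05, among 3.33% of all genes, and 0 on the lower side, among 1.39% of all genes. Their median difference was -0.04, with 10 above 0 and 16 below, or 14 and 12 without control array 2. Pcolce, which enhances the cleavage of the procollagen C-terminus, was at 8.33, 8.97 and 8.04 on deficient arrays, against 7.76, 7.34 and 6.68 on control arrays. The groups did not overlap, with a difference of 1.18 ± 0.30 (SE) and a limma adjusted p of 0.963, and 0.61 with the choroid plexus covariate. Its relative Pcolce2 was at 8.40, 8.26 and 8.14 on deficient arrays, against 8.24, 7.62 and 7.97 on control arrays, a difference of 0.32 with overlapping groups. It was 0.16 without control array 2 and -0.05 with the choroid plexus covariate. Tll1, a protease that cleaves procollagen, was at 4.44, 4.18 and 4.21 on deficient arrays, against 4.48, 4.46 and 4.40 on control arrays, a difference of -0.17 with overlapping groups. The prolyl hydroxylases P4ha1, P4ha2 and P4ha3 differed by -0.16, -0.04 and -0.06, and the collagen chaperone Serpinh1 by 0.28, or 0.12 without IκBα-deficient array 2.

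Of 10 measured collagen receptors among 11, 1 was on the higher side at an unadjusted p under 0.05 and 0 on the lower side, beside the same 3.33% and 1.39% of all genes, with a median difference of 0.001. Ddr1, a receptor tyrosine kinase that collagen activates, was at 11.20, 11.03 and 11.00 on deficient arrays, against 10.90, 10.93 and 10.75 on control arrays. Its difference of 0.22 ± 0.08 (SE) had a limma adjusted p of 0.963, and the mean of all its probe sets differed by 0.03. Mrc2, the endocytic collagen receptor, was at 5.95, 7.38 and 5.95 on deficient arrays, against 6.05, 6.05 and 5.59 on control arrays. The high value was that of IκBα-deficient array 2, and without it the difference of 0.53 was 0.06. Adgrg1, an adhesion receptor that binds type III collagen in the developing cortex, was at 8.15, 8.15 and 8.19 on deficient arrays, against 8.23, 8.22 and 8.27 on control arrays, a difference of -0.08 with no overlap.

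IκBα-deficient array 2 held the highest value of 23 of the 42 collagens, among 32.4% of all genes, and control array 3 the lowest of 12, among 16.4% of all genes. Of the 27 collagens with more than 1 probe set, all probe sets had the same sign for 20. The 7 with probe sets of both signs were Col12a1, Col14a1, Col19a1, Col22a1, Col25a1, Col4a1 and Col5a3.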

How the data were processed

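The deposited values are log2 values per probe set that the authors computed with RMA, as the submitters' processing notes name it. The version of RMA is not given in the sources used here, nor is a genome build. Sorted values differed between arrays by at most 0.10, medians were 6.08 to 6.13, and no arrays held the same values. Arrays have no read depth, so precision is limited by the 3 arrays per group.

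Of 45101 probe sets, 64 controls, 932 with several symbols and 9160 with none here were left out, and 34945 with 1 symbol (34741 matched to RefSeq by Entrez identifier) gave 18193 genes. Genes were compared in R 4.3.3 by limma 3.58.1 (moderated two-sided test, genotype alone, Benjamini-Hochberg over all genes, threshold 0.05), without a filter on dim genes. The fit was tested on 20 simulated datasets with noise drawn independently for each gene and array. Effects shared by many genes on an array were not simulated, so that test does not cover them. Figures were drawn with matplotlib 3.10.9.

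The members, classes and lists were chosen with earlier results of these data known, so lists are described by counts and medians without a test. The fibrillar class is types I, II, III, V, XI, XXIV and XXVII, and the basement membrane class is types IV, XV and XVIII. Array values are given for the 4 members with the smallest p in each of 3 classes, both Col8 genes, the brightest probe set of each class, members whose probe sets disagree with an unadjusted p under 0.05, and, of the lists, the 3 with the smallest p; Col1a1, Col6a2, Ttr, Fmod, Clic6, Tmem72, Foxc1, Foxd1, Ogn, Slc22a6, Slc47a1, Serpinh1, P4ha1, P4ha2, P4ha3 and second probe sets were added after their values were seen.

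Alternatives were each array left out, the replicate number as a block, other normalizations, a filter on the lowest 40% of genes, the mean of all probe sets, probe sets coded as shared left out, each probe set tested singly, limma with a trend and robust settings or array weights, no moderation, and the choroid plexus or meninges list mean as a covariate. Promoter windows are RefSeq's, found for 33 of the 42 genes, and were searched on both strands.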

Additional observations from a re-analysis of the deposited data

How the results depend on the processing

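No collagen gene passed an adjusted p under 0.05 (limma) under any alternative run, nor under 0.10 in the fit as reported. The smallest adjusted p among the collagens given by array was 0.0843, for Col8a1 with the replicate block. Nfkbia passed under 7 of 17 alternatives, with adjusted p of 0.00379 to 1. Each array left out in turn gave 3 to 11 collagens higher and 0 to 1 lower at an unadjusted p under 0.05, 6 to 13 separated higher and 0 to 4 lower. Groups of fewer arrays separate more readily, and the shares of all genes were not computed for these fits. The median difference then ran from -0.0075 to 0.13 for all collagens, -0.0072 to 0.13 for fibrillar, 0.03 to 0.16 for basement membrane, 0.96 to 1.53 for Col8 and -0.016 to 0.11 for the other collagens. Synthesis genes then counted 1 to 2 higher and 0 to 2 lower, and receptors 0 to 1 higher. The 3 medians below 0 came without IκBα-deficient array 2.

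With the replicate block, 12 collagens were higher and 1 lower at an unadjusted p under 0.05, and 2 synthesis genes higher. The series design speaks of 3 pairs of knockouts and littermates, but no label ties a repeat number to a pair. The repeat numbers were therefore not taken as pairs in the fit as reported. Deviations of same-numbered animals correlated at 0.061, 0.238 and 0.195 across genes, not all above 0.1. Other pairings of the animals were not compared, so these values cannot decide whether the numbers mark pairs. If they do, the fit as reported ignores the pairing. The SE of Col8a1 was 0.13 with the block and 0.35 without it. Counts of collagens higher at that p were 2 with the choroid plexus covariate, 4 with a trend and robust settings, 2 without moderation and 2 of the 15 collagens left without dim genes. Without dim genes 2 collagens were separated higher, and the medians were 0.24 (all), 0.53 (fibrillar), -0.041 (basement membrane) and 0.20 (others). With the choroid plexus covariate the Col8 median was 0.37, and synthesis and receptor genes counted 0 higher. With the meninges covariate the medians were -0.02 (all) and -0.053 (fibrillar), with 1 collagen and 1 synthesis gene lower and 0 receptors higher. The mean of all probe sets gave 1 collagen lower and 2 separated lower, and quantile normalization again and median centring 1 separated lower each. Leaving out probe sets coded as shared gave 0 synthesis genes higher, 1 lower and 0 receptors higher. Tested singly, 12 collagen probe sets were separated higher and 2 lower, with 1 lower at an unadjusted p under 0.05, and 2 higher and 1 lower in each list. A fit added after seeing the data, without IκBα-deficient array 2 and control array 1, gave 4 collagens higher at that p, 10 separated higher, 5 separated lower and a median of -0.0097, with 2 synthesis genes higher, 2 lower and 0 receptors higher. With so few arrays many genes separate without a difference. For none of the alternatives in this paragraph was the share of all genes or probe sets computed, so these counts have no baseline.

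Some single genes turned sign. Without single arrays these were Col4a1 (range -0.14 to 0.040), Col19a1 (-0.13 to 0.034) and Col25a1 (-0.022 to 0.12). Col4a1 was at 0.041 with the mean of all probe sets and 0.0089 with the choroid plexus covariate. Col19a1 was at 0.0072 without shared probe sets and 0.046 with the choroid plexus covariate. Col25a1 was at -0.024 with the mean of all probe sets, -0.031 with the meninges covariate and -0.091 without both arrays in doubt. Pcolce2 was at -0.048 with the choroid plexus covariate and Mrc2 at -0.038 with the meninges covariate. The cause was not tested. The other genes named by the rule kept their direction under the alternatives run. Collagen and synthesis genes added after their values were seen were recomputed only without single arrays, where Col6a2 was at -0.04 without IκBα-deficient array 2, P4ha2 at 0.014 without control array 2 and P4ha3 at 0.0039 without control array 3.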

Other observations

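In 7 pairs a collagen gene lies next to another collagen gene in RefSeq with no further protein-coding gene between them. Their log2 differences between deficient and control animals were 0.82 for Col3a1 and 0.24 for Col5a2, 0.35 for Col6a1 and 0.28 for Col6a2, and 0.48 for Col4a5 and 0.06 for Col4a6. They were 0.09 for Col9a1 and -0.03 for Col19a1, and 0.08 for both Col4a3 and Col4a4. They were -0.04 for Col4a1 and -0.07 for Col4a2, and -0.01 for Col6a5 and -0.05 for Col6a4. Neighbours were read from the same arrays, so these values are a description without a test.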
